A study of Mus musculus with 6 samples.

Results

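Matrix metalloproteinases (MMPs) and their inhibitors (TIMPs) were followed at the transcript level in osteoblasts, the cells that build bone, with or without a knockout (KO) of NDR1. The 10 genes were chosen by name from a table of 29018 genes, with earlier results of these data known. They were the proteases Mmp2, Mmp9, Mmp11, Mmp13, Mmp14, Mmp16 and Mmp19 and the inhibitors Timp1, Timp2 and Timp3. Each symbol matched 1 identifier, and all 10 genes passed the filter on low counts. The cells came from the calvaria (skull vault) of neonatal mice and had been put through osteogenic differentiation. One group was wild type (WT) and the other carried a KO of NDR1, a serine/threonine kinase encoded by Stk38, with 3 libraries of polyA RNA per group. The labels gave neither the strain, the sex or the design of the KO allele, nor whether replicates were separate animals or cultures, so the p-values speak only of the scatter among these 6 libraries, which may be technical.

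MMPs are zinc-dependent proteases that cut proteins of the extracellular matrix. They are made as inactive precursors whose propeptide blocks the active site until it is removed by other proteases. TIMPs bind the active enzyme and block it, and Timp2 also has a second role, since it links the precursor of MMP2 to the membrane protease MMP14, which activates it. In bone, MMP13 made by osteoblasts and hypertrophic chondrocytes and MMP9 made by osteoclasts remodel collagen, and loss of MMP14 impairs the skeleton. Transcript levels do not measure the enzymes, their activation or their inhibition.

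Levels are given as FPKM, which is scaled to transcript length and library total and so can be compared between genes, for KO replicates 1 to 3 and WT replicates 1 to 3 in that order. Changes are log2 KO over WT ± SE from edgeR's quasi-likelihood fit, with p-values adjusted over all genes tested by the Benjamini-Hochberg method, and a gene was called at an adjusted p under 0.05. Total counts per library ran from 61461870 to 76159034. Stk38 itself stood at 4.17, 3.98 and 4.31 FPKM in KO and at 5.83, 6.20 and 6.35 FPKM in WT, so the targeted transcript was lower in every KO library but was still read (log2 change -0.61 ± 0.05, edgeR adjusted p = 8.10e-06). The osteoblast genes Col1a1 and Runx2 were read in all 6 libraries, with WT means of 4469 and 9.54 FPKM. Col1a1 was lower in KO, at a mean of 3363 FPKM (log2 change -0.46 ± 0.02, edgeR adjusted p = 1.87e-07). Bglap, another osteoblast gene, was barely read and was not called, with 42, 12 and 33 counts in KO and 71, 28 and 46 in WT.

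All 10 genes were called, 6 of them higher and 4 lower in KO, on a background of 22.9% of 18221 genes called (11.2% higher and 11.7% lower). Earlier results of these data were known when the 10 were chosen, so this count describes them and not the family. Of the 11 other MMP and TIMP genes tested, 2 were called higher and 1 lower. Mmp9 fell to a small fraction of its WT level, Mmp13 rose 1.86-fold, Timp1 rose 1.36-fold, and the most abundant transcripts, Timp2 and Mmp2, rose 1.06-fold and 1.09-fold. Mmp16 and Mmp19 were also higher, and Mmp14, Mmp11 and Timp3 were lower. For each of the 10 genes the 3 KO values and the 3 WT values did not overlap on the CPM scale, as for 38.2% of all genes tested. A change of at least 2-fold was called for Mmp9 alone among them, against 4.59% of all genes in either direction and 2.01% with a fall of that size. The median log2 change of the 10 was 0.11, and that of all genes tested was 0.00. An exact two-sided permutation test on log2(FPKM + 1) gave p = 0.1 for each of the 10, the smallest that 3 against 3 libraries allow.

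**Figure D1:**
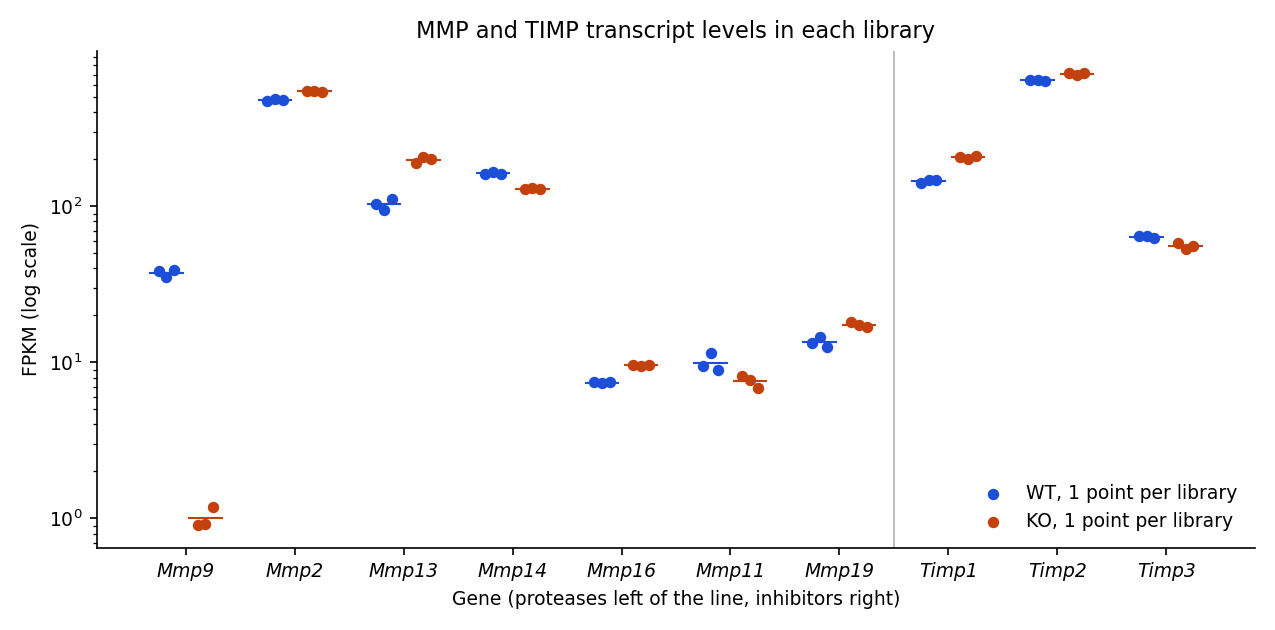
FPKM of each gene on a log axis, with 1 point per library, WT in blue and KO in orange, and a bar at the group mean. Mmp9 lay between 35.4 and 39.0 FPKM in WT and between 0.904 and 1.18 FPKM in KO, while the other 9 genes differed between the group means by far less.

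The gelatinases are Mmp9 and Mmp2, which cut denatured collagen and basement membrane proteins. Mmp9 (ENSMUSG00000017737, chromosome 2, 164782700 to 164797770 as the deposited table places it, on a mouse build not named in the sources used here) stood at 0.904, 0.917 and 1.18 FPKM in KO and at 38.5, 35.4 and 39.0 FPKM in WT. All KO libraries were therefore near 1 FPKM and all WT libraries near 40. The log2 change was -5.27 ± 0.09 (edgeR adjusted p = 6.56e-10), so the KO level was 2.60% of WT with a 95% interval of 2.25 to 2.996%. It rested on 257, 213 and 339 counts in KO against 9642, 8861 and 10011 in WT. By mean FPKM, Mmp9 went from rank 1027 of 29018 genes in WT to rank 12168 in KO. Its log2 change was the 11th lowest of all genes tested, and the lowest among the 1252 genes with a WT level of at least its own in CPM. No other gene model overlapped Mmp9 in the deposited coordinates.

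Mmp2 (ENSMUSG00000031740, chromosome 8, 93553919 to 93580048) changed little beside it. It stood at 547, 547 and 542 FPKM in KO and at 472, 490 and 484 FPKM in WT. The KO libraries lay closely together just above all WT libraries. Mmp2 changed by 0.13 ± 0.02 on the log2 scale (edgeR adjusted p = 0.000632), a 1.09-fold rise with a 95% interval of 1.06 to 1.13. The ratio of Mmp2 to Mmp9 in FPKM was therefore 12.8 ± 0.887 in WT and 554 ± 81.8 in KO (SD, n = 3 per group). Mmp2 was the most abundant of the 7 proteases in all 6 libraries, where it gave 58.6 to 60.7% of their summed FPKM. The opposite-strand model Gm45472, which overlaps Mmp2, had 2.45 CPM in KO and 2.79 CPM in WT, against 1920 and 1754 CPM for Mmp2.

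Mmp13, or collagenase-3, cuts fibrillar collagen and is known from mineralizing bone. Mmp13 (ENSMUSG00000050578, chromosome 9, 7272514 to 7283331) stood at 188, 208 and 202 FPKM in KO and at 104, 95.4 and 112 FPKM in WT. Each KO library exceeded each WT library by a wide margin. On the log2 scale it changed by 0.89 ± 0.06 (edgeR adjusted p = 1.44e-06), or 1.86-fold with a 95% interval of 1.70 to 2.02. Its share of the 7 proteases' FPKM went from 12.7 ± 0.989% in WT to 21.9 ± 0.895% in KO (SD, n = 3). Mmp13 and Mmp9 thus went opposite ways in the same libraries, with an Mmp13 to Mmp9 ratio of 2.76 ± 0.102 in WT and 202 ± 28.1 in KO.

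The promoters of Mmp13, Timp1 and Mmp14 are shown, out of 6 genes matched in the set of RefSeq promoters used here (GRCm38.p6). Among these 6, Mmp13 and Timp1 had the largest rises and Mmp14 had the fall of lowest p. Mmp11, Timp2 and Timp3 also matched, and Mmp2, Mmp9, Mmp16 and Mmp19 did not. Each sequence is the 250 bases before the annotated start, 5′ to 3′ on the strand of the gene. The windows are chr9:7272264-7272513 on the plus strand for Mmp13, chrX:20869916-20870165 on the plus strand for Timp1 and chr14:54431348-54431597 on the plus strand for Mmp14. These are GRCm38.p6 coordinates. The Mmp13 window adjoins the deposited start of the gene, but those of Timp1 and Mmp14 do not (deposited starts 20736405 and 54669069). The 2 sets of coordinates should therefore not be combined. Capitals mark matches, on either strand, to TGANTCA (AP-1 factors), ACCACA (RUNX factors) and AGGAAG (ETS factors).
Mmp13: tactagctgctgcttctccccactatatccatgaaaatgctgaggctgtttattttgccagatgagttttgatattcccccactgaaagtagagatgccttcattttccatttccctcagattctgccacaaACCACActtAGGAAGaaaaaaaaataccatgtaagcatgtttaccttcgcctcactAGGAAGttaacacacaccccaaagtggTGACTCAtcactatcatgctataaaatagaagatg
Timp1: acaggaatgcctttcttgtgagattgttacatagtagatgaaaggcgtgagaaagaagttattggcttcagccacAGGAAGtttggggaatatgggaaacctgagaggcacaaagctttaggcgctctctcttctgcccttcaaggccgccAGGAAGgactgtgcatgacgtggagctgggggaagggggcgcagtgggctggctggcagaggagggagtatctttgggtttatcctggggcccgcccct
Mmp14: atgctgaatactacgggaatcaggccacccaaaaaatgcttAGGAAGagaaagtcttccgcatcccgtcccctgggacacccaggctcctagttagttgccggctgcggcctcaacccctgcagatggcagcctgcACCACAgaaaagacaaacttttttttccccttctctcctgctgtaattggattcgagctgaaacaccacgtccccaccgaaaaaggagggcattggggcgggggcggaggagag
The Mmp13 window held all 3 motifs, with TGACTCA from 35 to 29 bases before the start, ACCACA from 118 to 113 and AGGAAG from 109 to 104 and from 62 to 57. Of 32851 promoter windows of the same length, 6.75% held TGANTCA, 14.0% ACCACA and 29.5% AGGAAG. The Timp1 window held AGGAAG at 2 places, and the Mmp14 window held ACCACA and AGGAAG once each. Neither held TGANTCA, nor did the windows of Mmp11, Timp2 and Timp3. A match is a stretch of letters, and binding of a factor was not measured.

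Of 17 genes fixed as transcription factors known at MMP promoters, all tested, 4 were higher and 5 lower, with a median log2 change of -0.08. The AP-1 subunit gene Junb rose from 7.42 ± 0.632 to 11.5 ± 0.111 FPKM (log2 change 0.58 ± 0.07), and the AP-1 subunit gene Fosl2 fell (-0.18 ± 0.03). Among ETS factors Etv5 rose (0.55 ± 0.05) and Ets2 fell (-0.68 ± 0.08), each called by edgeR's test. Genes of AP-1 and ETS factors thus moved in both directions. Runx2 stood at 8.43 ± 0.593 FPKM in KO against 9.54 ± 0.351 in WT (log2 change -0.23 ± 0.05, edgeR adjusted p = 0.00756).

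The membrane-anchored proteases among the 10 are Mmp14 and Mmp16, which act at the cell surface. Mmp14, which activates the precursor of MMP2 and cuts type I collagen (ENSMUSG00000000957, chromosome 14, 54669069 to 54678722), stood at 129, 131 and 129 FPKM in KO and at 160, 165 and 162 FPKM in WT. The 2 groups were each tight and lay well apart. The log2 change was -0.38 ± 0.02 (edgeR adjusted p = 5.17e-07), so KO held 77.1% of the WT level (95% interval 74.7 to 79.5%). Mmp14 went down while its substrate Mmp2 went up, and the ratio of Mmp14 to Mmp2 was 0.236, 0.239 and 0.237 in KO against 0.340, 0.338 and 0.335 in WT.

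Mmp16 (ENSMUSG00000028226, chromosome 4, 17852893 to 18117457), a membrane protease of the same subfamily, stood at 9.59, 9.53 and 9.66 FPKM in KO and at 7.48, 7.34 and 7.44 FPKM in WT. Its libraries varied less within a genotype than those of any other of the 7 proteases except Mmp2 in KO, with coefficients of variation of 0.680% in KO and 1.001% in WT. Mmp16 changed by 0.32 ± 0.03 on the log2 scale (edgeR adjusted p = 5.30e-05). Mmp14 and Mmp16 therefore changed in opposite directions, and Mmp14 remained the more abundant of the pair in both genotypes, at 130 ± 1.14 against 9.59 ± 0.0653 FPKM in KO.

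Mmp11 and Mmp19 are secreted proteases of low abundance here. Mmp11, or stromelysin-3, which is activated inside the cell (ENSMUSG00000000901, chromosome 10, 75759056 to 75772330), stood at 8.14, 7.69 and 6.87 FPKM in KO and at 9.47, 11.4 and 8.87 FPKM in WT. The highest KO library and the lowest WT library were close, and WT replicate 2 was the highest. The log2 change was -0.44 ± 0.10 (edgeR adjusted p = 0.00734), and this call was lost in limma's test on log2(FPKM + 1) without a filter on low values (log2 change -0.35, adjusted p = 0.0964).

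Mmp19 (ENSMUSG00000025355, chromosome 10, 128626779 to 128636693), which cuts basement membrane proteins, stood at 18.1, 17.3 and 16.9 FPKM in KO and at 13.3, 14.6 and 12.5 FPKM in WT. All KO libraries were above all WT libraries. The log2 change was 0.32 ± 0.06 (edgeR adjusted p = 0.00243), of the same size as that of Mmp16. Gene models on the opposite strand overlapped Mmp11 and Mmp19, and whether counting used strand is not given in the sources used here. Of these, Tmem198b, beside Mmp19, had the most reads, at 29.6 CPM in KO and 26.2 CPM in WT (log2 change 0.18, edgeR adjusted p = 0.0901), and Chchd10, beside Mmp11, had under 1 CPM in each group.

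The inhibitors differed in direction. Timp1, a secreted inhibitor known to be induced by cytokines (ENSMUSG00000001131, chromosome X, 20736405 to 20740974), stood at 206, 201 and 211 FPKM in KO and at 142, 149 and 148 FPKM in WT. The 3 KO libraries were all well above the 3 WT libraries, with little scatter in either group. Timp1 changed by 0.45 ± 0.03 on the log2 scale (edgeR adjusted p = 4.30e-06), or 1.36-fold with a 95% interval of 1.296 to 1.43.

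Timp2 (ENSMUSG00000017466, chromosome 11, 118191887 to 118246566) stood at 711, 697 and 712 FPKM in KO and at 644, 641 and 640 FPKM in WT. It was the most abundant of the 10 transcripts in every library. Timp2 changed by 0.09 ± 0.02 on the log2 scale (edgeR adjusted p = 0.00428), a 1.06-fold rise (95% interval 1.04 to 1.09). Timp2 and Mmp2, whose proteins meet in the activation complex at the cell surface, kept nearly the same proportion, with a Timp2 to Mmp2 ratio of 1.296 ± 0.0194 in KO and 1.33 ± 0.0295 in WT (SD, n = 3), ranges that overlapped. Timp2 shares 10188 bases of its span with Cep295nl on the same strand, the only same-strand overlap among the 10, and how reads fitting both were counted is not given. Cep295nl stood at 5.91 CPM in KO and 5.73 CPM in WT, against 3126 and 2938 CPM for Timp2.

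Timp3, the inhibitor that stays bound to the matrix and also blocks ADAM and ADAMTS proteases (ENSMUSG00000020044, chromosome 10, 86136236 to 86185370), stood at 57.9, 53.5 and 55.4 FPKM in KO and at 64.2, 65.0 and 62.8 FPKM in WT. The KO libraries were all below the WT libraries. The log2 change was -0.25 ± 0.03 (edgeR adjusted p = 0.000187), so KO held 84.0% of the WT level (95% interval 80.1 to 88.1%). The ratio of Timp1 to Timp3 was 3.71 ± 0.122 in KO and 2.28 ± 0.0695 in WT. Timp1 and Timp3 lie inside the opposite-strand gene models of Syn1 and Syn3, which had 3.19 and 1.03 CPM in KO and 4.68 and 1.13 CPM in WT, far below the 191 and 473 CPM of Timp1 and Timp3 in KO.

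In WT the order of levels by FPKM was Timp2, Mmp2, Mmp14, Timp1, Mmp13, Timp3, Mmp9, Mmp19, Mmp11 and Mmp16, and the libraries of no neighbouring pair overlapped. In KO the order was Timp2, Mmp2, Timp1, Mmp13, Mmp14, Timp3, Mmp19, Mmp16, Mmp11 and Mmp9, and only the libraries of Timp1 and Mmp13 overlapped. Mmp9 moved from seventh place to last.

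The sum over the 7 proteases was 901, 921 and 908 FPKM in KO and 805, 819 and 825 FPKM in WT. The sum over the 3 inhibitors was 976, 952 and 978 FPKM in KO and 850, 855 and 851 FPKM in WT. Both sums were higher in each KO library than in each WT library, and their ratio, inhibitors over proteases, overlapped between the groups at 1.06 ± 0.0269 in KO and 1.04 ± 0.0132 in WT (SD, n = 3). The log2 KO over WT of the sums was 0.16 for the proteases and 0.18 for the inhibitors in FPKM, but 0.027 and 0.058 as sums of CPM, which weigh long transcripts more and are scaled by TMM. Within the proteases, the share of Mmp9 went from 4.61 ± 0.256% to 0.110 ± 0.0173%, and that of Mmp14 from 19.9 ± 0.287% to 14.2 ± 0.0717%. Within the inhibitors, the share of Timp1 went from 17.1 ± 0.386% to 21.3 ± 0.228%.

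**Figure D2:**
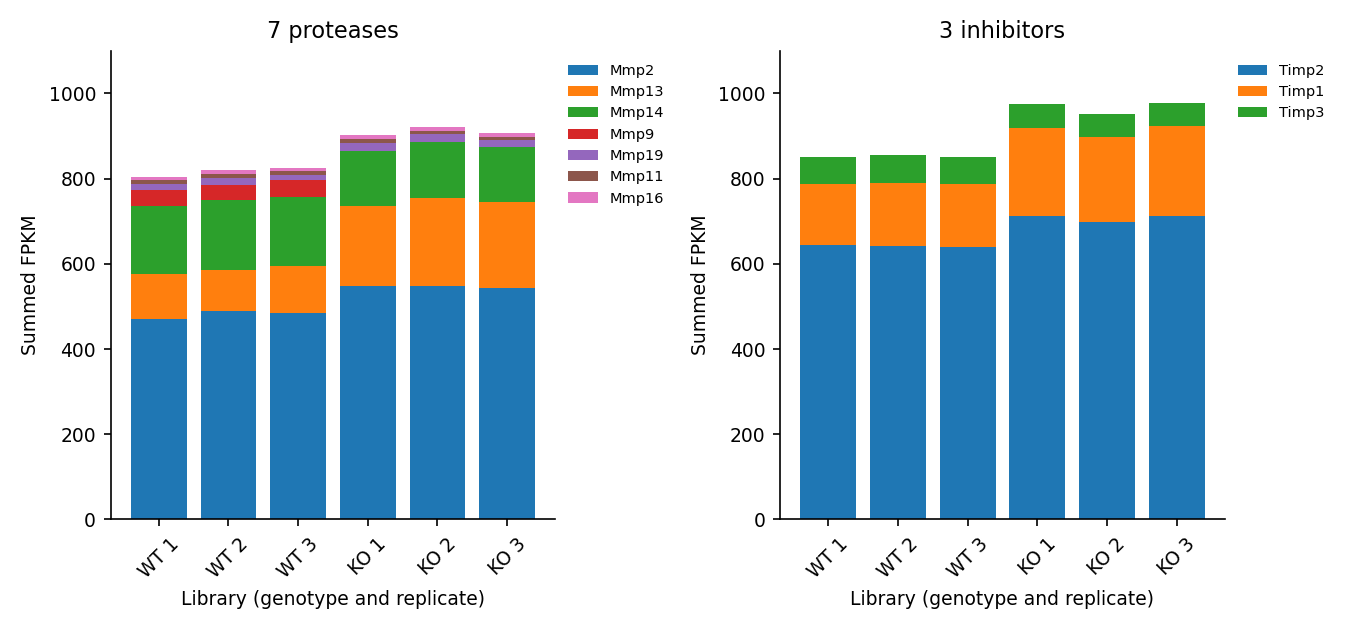
Stacked bars of FPKM per library for the 7 proteases (left) and the 3 inhibitors (right), on an axis from 0. The proteases summed to 805 to 825 FPKM in WT and 901 to 921 in KO, the Mmp9 segment is visible only in WT, and Timp2 makes up most of each inhibitor bar.

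Most of the other family genes were at low levels and were not called. Of 17 other MMP and TIMP genes listed, 15 were matched in the table and 11 were tested, of which 2 were higher and 1 lower, with a median log2 change of -0.01. Mmp8, or neutrophil collagenase, stood at 0.536 ± 0.0450 FPKM in KO against 0.173 ± 0.0654 in WT (log2 change 1.56 ± 0.33, edgeR adjusted p = 0.00593). Mmp3, or stromelysin-1, which can activate other MMP precursors, stood at 3.23 ± 0.332 against 2.10 ± 0.183 FPKM (0.57 ± 0.13, adjusted p = 0.0111 in edgeR's test). The membrane-anchored Mmp17 was lower, at 1.77 ± 0.0107 against 2.14 ± 0.0563 FPKM (-0.32 ± 0.07, adjusted p = 0.00600 in edgeR's test). Mmp23 was the most abundant of these genes and was not called, at 77.6 ± 2.45 against 74.7 ± 1.09 FPKM (0.01 ± 0.03). The macrophage elastase gene Mmp12 was not called either, at 0.157 ± 0.0362 against 0.153 ± 0.0656 FPKM. The collagenase genes Mmp8 and Mmp13 were thus both higher in KO, at levels far apart, while Mmp14, which also cuts type I collagen, was lower. Mmp8 rested on 101, 93 and 99 counts in KO and on 43, 21 and 27 in WT.

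**Figure D3:**
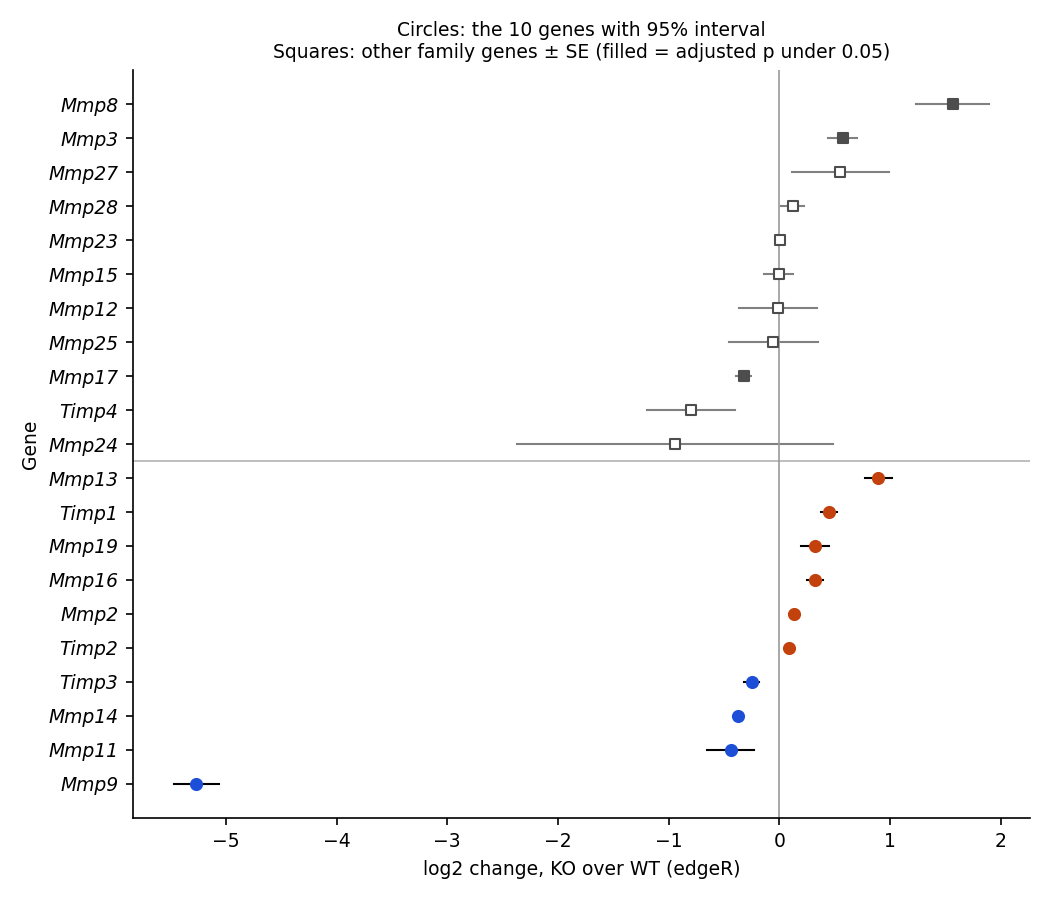
log2 change, KO over WT, of the 10 genes (circles, with 95% interval) and of the 11 other family genes tested (squares, ± SE, filled where called). Mmp9 stands apart at -5.27, and the other 9 of the 10 genes lie between -0.44 and 0.89.

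Of 25 genes that activate, hold or take up MMPs, 23 were tested, 7 were higher and 9 lower, with a median log2 change of -0.06. The proprotein convertase gene Pcsk5 was at 1.98 ± 0.0883 FPKM in KO against 3.93 ± 0.154 in WT (log2 change -1.04 ± 0.05), and the caveolin gene Cav1 was higher, at 62.4 ± 1.92 against 34.2 ± 2.20 FPKM (0.82 ± 0.04). Furin, the convertase that removes the propeptide of MMP14 and MMP11, was not called (19.99 ± 0.412 against 20.1 ± 0.242 FPKM, log2 change -0.06 ± 0.03), nor was Reck, a membrane-anchored MMP inhibitor (0.01 ± 0.03). The inhibitor gene A2m of the same list was called lower at a low level, 0.138 ± 0.0286 against 0.554 ± 0.0537 FPKM (-2.04 ± 0.20). The urokinase gene Plau, whose product makes plasmin, rose (0.56 ± 0.08), as did its receptor gene Plaur (0.48 ± 0.07), both called by edgeR's test.

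Of 20 matrix substrates of MMPs, all tested, 4 were higher and 11 lower, with a median of -0.14. Elastin (Eln) changed by -1.62 ± 0.05, the proteoglycan decorin (Dcn) by -0.92 ± 0.03 and the basement membrane protein nidogen-1 (Nid1) by -0.71 ± 0.02, while fibronectin (Fn1) rose by 0.75 ± 0.03. Of 13 ADAM and ADAMTS proteases known as targets of TIMP3 or as their close relatives, all tested, 3 were higher and 7 lower, with a median of -0.13. Adamts9 (-0.66 ± 0.04), Adamts2 (-0.31 ± 0.02) and Adam12 (-0.35 ± 0.03) fell in the same libraries as Timp3, and Adam8, a protease of myeloid cells, rose (1.298 ± 0.08). These changes are of transcripts, and cleavage of any substrate was not measured.

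**Figure D4:**
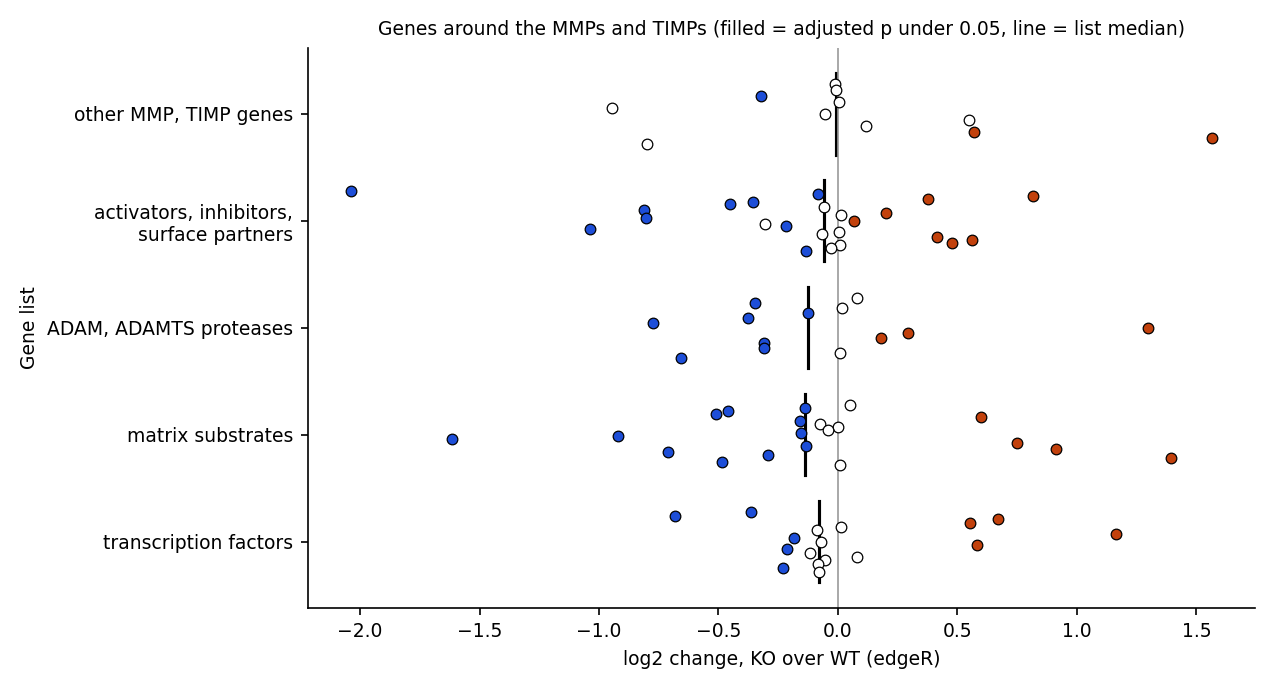
Each point is 1 tested gene at its log2 change, KO over WT, filled where called (orange higher, blue lower), with a line at the median of each list. All 5 lists hold genes on both sides of 0, and their medians lie between -0.14 and -0.01.

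MMP9 is best known from osteoclasts, macrophages and neutrophils, so the markers of these cells were set beside it. In libraries of whole cultures, fewer cells of a type and less RNA per cell cannot be told apart. Of 14 osteoclast markers, 10 were tested, 2 were higher and 2 lower, with a median log2 change of 0.09. Calcr, Dcstamp and Siglec15 were not matched at all. Atp6v0d2 and Oscar were tested at low levels, 0.341 and 0.254 FPKM in KO and 0.199 and 0.189 FPKM in WT, and were not called. Acp5, which encodes tartrate-resistant acid phosphatase, was not called, at 6.70 ± 0.267 FPKM in KO against 6.19 ± 0.479 in WT (0.07 ± 0.08). Ctsk, the collagen-cutting cathepsin K, was lower, at 138 ± 3.21 against 183 ± 4.14 FPKM (-0.45 ± 0.03), as was the integrin gene Itgb3 (-0.80 ± 0.07). Tcirg1, a proton pump subunit, and Tnfrsf11a, the receptor RANK, were higher (0.27 ± 0.07 and 1.05 ± 0.27). The fusion gene Ocstamp was barely read, with 9, 0 and 8 counts in KO and 23, 12 and 18 in WT, and Car2 had 0, 0 and 4 counts against 18, 9 and 16. The summed level of the osteoclast list ran from 167 to 172 FPKM in KO and from 210 to 217 FPKM in WT, most of it Ctsk. Ctsk alone ran from 135 to 141 FPKM in KO and from 180 to 188 FPKM in WT. The difference in the sum thus follows Ctsk and does not describe the other markers.

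Of 16 macrophage markers, all tested, 14 were higher, and all 16 log2 changes were above 0 with a median of 1.38, opposite in sign to Mmp9. Their summed level ran from 641 to 715 FPKM in KO and from 244 to 324 FPKM in WT, most of it the lysozyme gene Lyz2, and Cd14 and Aif1 were the 2 not called. The part of these cells in the rises of Mmp13, Mmp19, Timp1 and Mmp8 was not tested. Of 10 neutrophil markers none passed the filter, and the 4 in the table (S100a8, Camp, Mpo and Ly6g) summed to 0 to 0.204 FPKM in KO and 0.0723 to 0.162 FPKM in WT. The part of osteoclasts, macrophages or neutrophils in the fall of Mmp9 was not tested.

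**Figure D5:**
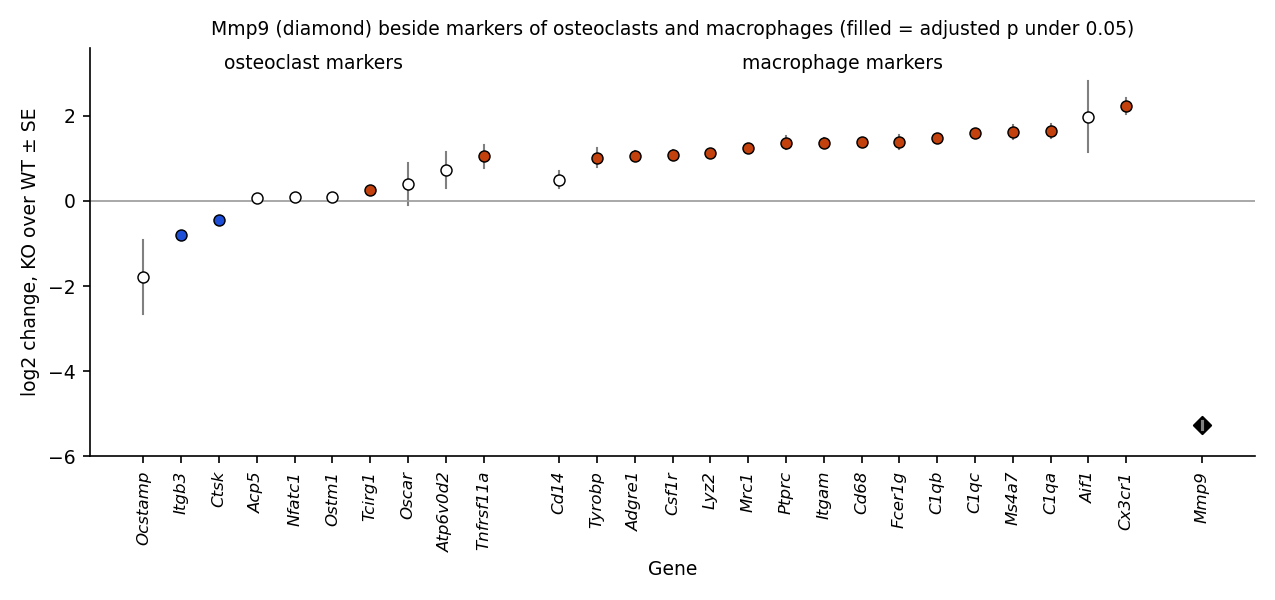
log2 change, KO over WT, ± SE, of the 10 tested osteoclast markers, the 16 macrophage markers and Mmp9 (diamond), filled where called. The osteoclast markers lie on both sides of 0 and the macrophage markers above it, while Mmp9 lies at -5.27, below all of them.

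Markers of other cells that could be present were also read. Of 12 chondrocyte markers 11 were tested, 2 were higher and 4 lower, with a median of -0.14, and among the 4 of lowest p were Col9a1 (-1.25 ± 0.04) and Sox9 (0.52 ± 0.04). Col10a1, which marks the hypertrophic chondrocytes known for Mmp13, was at 1.33 ± 0.519 FPKM in KO against 2.43 ± 0.402 in WT (-0.91 ± 0.25, edgeR adjusted p = 0.0242), opposite in direction to Mmp13. Of 10 fibroblast markers 7 were lower and 1 higher (median -0.38), and of 14 osteoblast markers 6 were lower and 2 higher (median -0.25). Of 8 osteocyte markers 6 were tested, 3 lower and 2 higher (median -0.29). Of 7 adipocyte markers tested 6 were lower, with a median log2 change of -3.82. Their summed level ran from 14.2 to 15.4 FPKM in KO and from 29.2 to 31.2 FPKM in WT. Most of that sum was Lpl, at 11.1 FPKM in KO and 22.2 FPKM in WT. Among the adipocyte markers Plin1 (-5.57 ± 0.75), Adipoq (-4.41 ± 0.61) and Fabp4 (-3.50 ± 0.30) stood beside -5.27 ± 0.09 for Mmp9, from WT levels of 0.572, 1.18 and 1.41 FPKM. Of 7 muscle markers tested 3 were lower, with a median of -1.03 and a summed level of 3.38 to 4.34 FPKM in KO against 6.56 to 7.73 FPKM in WT. Of 7 endothelial markers tested 3 were lower, with a median of -0.71 and a summed level of 2.22 to 2.96 FPKM against 3.69 to 4.01 FPKM. The medians of the adipocyte and muscle lists were the same with Cidec and Mybph, which had no counts in KO, set at the bound that 3 counts in the KO group as a whole would give. Their part in the changes of the 10 genes was not tested.

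The genes whose profile over the 6 libraries was most like that of Mmp9 were Septin6, Myh8, Scg2, Matn1 and Nrgn, by the distance between log2(CPM + 0.5) values, each centred on the gene's own mean, among 14023 other genes with a mean of at least 1 CPM. Septin6, a cytoskeletal GTPase gene, was nearest (distance 1.08), at 1.26 ± 0.129 CPM in KO against 34.1 ± 2.31 in WT. The muscle myosin gene Myh8 (1.58), the secretogranin gene Scg2 (1.66) and the cartilage matrilin gene Matn1 (2.04) followed, and Nrgn, a neuronal gene, was at 2.28. With 2 groups of 3, the size of the change between genotypes sets most of this distance.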

How the data were processed

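RNA sequencing of polyA RNA from 6 libraries of calvarial osteoblasts, 3 KO and 3 WT, was analysed. The authors deposited whole-number counts per gene and FPKM for each library, per the file headers. The submitters' processing notes name cutadapt 1.9, HISAT2 2.0.4 and StringTie 1.3.4d, without parameters. They list a human genome build although the identifiers are of mouse, so deposited coordinates are given as they stand. The method of counting is not given in the sources used here. Low counts piled up at multiples of 4 (6561 values of 4, against 2909 of 3 and 1937 of 5), so a count may not be a single fragment. No interval given here rests on counting error alone. The edgeR fits and the bound of 3 counts for Cidec and Mybph took the counts as deposited.

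The test was edgeR 4.0.16's two-sided quasi-likelihood F-test under R 4.3.3, with genotype as the only term, TMM scaling and p-values adjusted by Benjamini-Hochberg. The filter filterByExpr kept 18221 genes. Each standard error is the size of the log2 change divided by √F. CPM are counts scaled by TMM library sizes. Exact permutation tests used scipy 1.17.1 on log2(FPKM + 1). Alternatives were DESeq2 1.42.0, limma 3.58.1 on FPKM, other scalings and filters, a replicate block and leaving out each library. The share of called genes that were higher was 49.0%, but 63.0% without TMM and 62.3 to 64.5% in limma on FPKM. The pipeline was tested on simulated data. Promoter windows came from RefSeq.

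The members and gene lists were chosen with earlier results of these data known. Named genes were the 10 members, Stk38, any gene of the other-family, osteoclast and macrophage lists, up to 4 genes of lowest p of each other list, and the 5 genes most like Mmp9. Furin, Reck, Plau, Plaur, A2m, Col10a1, Cidec, Runx2, Col1a1, Bglap and the overlapping genes were named after their values were seen, and so were the neutrophil genes.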

Additional observations from a re-analysis of the deposited data

How the results depend on the processing

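Under 15 alternative fits each of the 10 genes kept its direction, and 9 kept their calls in all of them. Mmp11 lost its call in limma on log2(FPKM + 1) without a filter on low values (log2 change -0.35, adjusted p = 0.0964); the cause was not tested. Mmp9 ran from -5.41 to -4.27 over the alternatives, Mmp13 from 0.83 to 0.95 and Timp1 from 0.42 to 0.50. The 2 smallest changes ran from 0.12 to 0.18 for Mmp2 and from 0.08 to 0.14 for Timp2. Over all genes, 2131 were lower in KO, but 1267, 1254 and 1246 in limma on FPKM with a pseudocount of 1, of 0.1 and without a filter. The log2 change of the summed level moved from 0.16 to 0.027 for the proteases and from 0.18 to 0.058 for the inhibitors when CPM replaced FPKM; sums of CPM weigh each gene by its length and use TMM.

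Leaving out each library kept all 10 calls, with Mmp11 between -0.51 and -0.33 (edgeR adjusted p of at most 0.0286). No pairing by replicate number was seen: deviations of same-numbered libraries correlated at -0.05, -0.02 and 0.00. Those of differently numbered libraries correlated at -0.02 to 0.04. With 3 libraries per group this check cannot show that the libraries were unpaired, and the labels do not say. With a replicate block edgeR called 3888 genes against 4179, and 6 of the 10 genes higher and 4 lower as before. Mmp9 varied more within KO, at 213 to 339 counts (coefficient of variation of FPKM 15.6%), than within WT (5.27%).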
